A study of Homo sapiens with 2 samples.

Results

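The interleukin 6 family genes IL6, IL11, LIF and OSM encode secreted cytokines. Their loci were examined for chromatin regions called for HMGB2 in senescent against growing cells. HMGB2 is a DNA-bending chromatin protein of the high mobility group. Members were all regions of 2 deposited lists that lay within 5 kb, edge to edge, of the hg19 positions of these 4 genes: IL6 at chr7:22766766-22771621, IL11 at chr19:55875757-55881831, LIF at chr22:30636436-30642840 and OSM at chr22:30658819-30662829. Regions were taken by position alone, but the genes were chosen with earlier results of these lists known. It gave 8 of the 364 broad regions and 0 of the 2792 narrow regions.

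The lists come from chromatin immunoprecipitation and sequencing with a rabbit antibody against HMGB2 in IMR90 human lung fibroblasts. There was 1 library of cells infected with RAS, an oncogene that drives fibroblasts into senescence, and 1 library of growing control cells, each taken at day 2, cultured in 2% oxygen and prepared from 10 ng of precipitated DNA. The labels give neither the RAS allele nor the vector. The authors called the regions in senescent against growing cells, and the reading of a region as higher in senescent cells rests on that order in the names of the lists. With 1 library per condition there was no replicate check. The lists hold positions only, so the depth is unknown and no fold can be given. The absence of a region can mean a signal under the threshold of the authors, or one that was similar in both conditions. It does not show that HMGB2 was absent.

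Cytokines of this family signal through receptor complexes that contain IL6ST, a receptor chain shared by the whole group studied here, and activate JAK kinases and the transcription factor STAT3. Proteins of the SOCS family, made in response to STAT3, dampen the signal. IL6 is a central cytokine of the secretory programme of senescent fibroblasts, IL11 acts on stromal cells and in fibrosis, LIF maintains stem cells and acts on many tissues, and OSM is made mainly by leukocytes. The title of the study places its question at the gene loci of the senescence-associated secretory phenotype.

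HMGB2 regions lay at 3 of the 4 genes, and the genes differed in how many they had and how wide these were. IL11 had 2 broad regions with a summed width of 5220 bp, LIF had 4 with 3396 bp, IL6 had 2 with 1000 bp, and OSM had none. Broad regions covered 77.0% of the length of IL11, 36.7% of LIF and 10.3% of IL6. Of the 8 regions, 4 had the smallest width in the list, 500 bp, and 4 were wider. The wider regions, called wide here, were 2 at IL11 and 2 at LIF, out of 53 in the list.

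**Figure D1:**
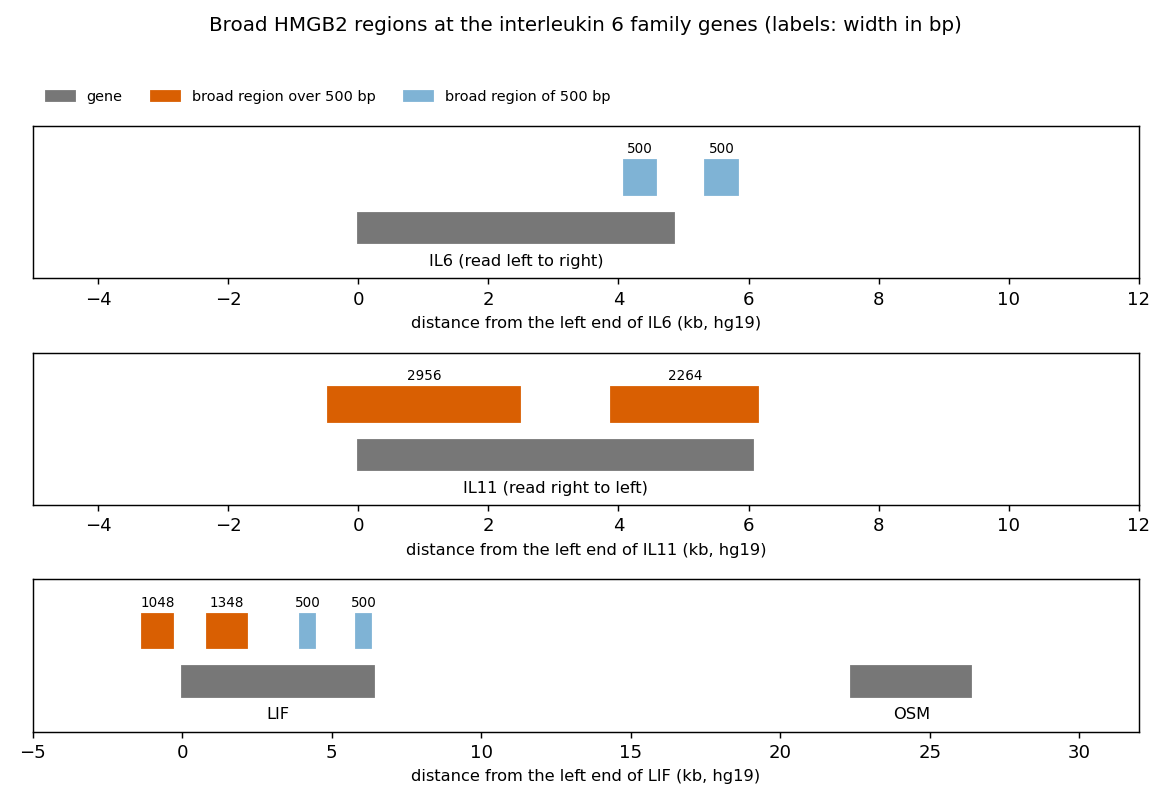
Maps of the broad HMGB2 regions (upper boxes, labelled with their width in bp) and of the genes (grey bars) against the distance in kb from the left end of IL6, IL11 or LIF. Regions covered most of IL11, lay at the far end of IL6, were spread along LIF and were not seen at OSM, 16.0 kb from LIF.

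For a background, hg19 chromosomes 1 to 22 and X were divided into adjoining windows of 15 kb, close to the 14.0 to 16.4 kb that a gene with its flanks took up. A broad region lay in 369 of 202409 windows (0.182%, exact binomial 95% interval 0.164 to 0.202), and 3 of the 4 gene windows held at least 1. A wide region lay in 53 windows (0.0262%, 0.0196 to 0.0342), and the windows of IL11 and LIF held 2 each. Because the genes were chosen with results known, these counts are descriptions. These windows include DNA far from any gene, and the share for gene windows alone was not computed, since no hg19 annotation was used here. Intervals cover counting error only.

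IL11, whose product signals through IL11RA and IL6ST, lies on the minus strand, so its start is at the right end of the hg19 interval. A region of 2264 bp at chr19:55879645-55881909 covered this start, from 78 bp before it to 2186 bp into the gene. A region of 2956 bp at chr19:55875292-55878248 began 3583 bp into the gene and ran 465 bp past its end. Together they left 1397 bp in the middle of the gene without a region and reached over a span of 6617 bp. Their places in the broad list were 15 and 5, and by width they ranked 11 and 6 of 364. No other broad region lay within 3.19 Mb of IL11, although chromosome 19 held 15 of them, 7 of which were wide. The protein-coding neighbours of IL11 in the RefSeq gene table are GARIN5B and TMEM190.

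The promoter of IL11 is shown because a region reached over the start of the gene, with the promoter of IL6, where none did, for comparison. The sequences are from RefSeq on GRCh38.p14, at chr19:55370414-55370713 on the minus strand for IL11 and chr7:22726950-22727249 on the plus strand for IL6, and each runs from 250 bases before the start of the gene to 50 after. The start need not be the same base as the end of the hg19 interval. Capitals mark matches on either strand to the motifs GGGNNTTTC (NF-kB), TGANTCA (AP-1), TTNNGNAA (C/EBP) or, for the TATA box, TATAAA. No capitals of different motifs overlap. LIF and OSM were not matched in the promoter table.

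IL11: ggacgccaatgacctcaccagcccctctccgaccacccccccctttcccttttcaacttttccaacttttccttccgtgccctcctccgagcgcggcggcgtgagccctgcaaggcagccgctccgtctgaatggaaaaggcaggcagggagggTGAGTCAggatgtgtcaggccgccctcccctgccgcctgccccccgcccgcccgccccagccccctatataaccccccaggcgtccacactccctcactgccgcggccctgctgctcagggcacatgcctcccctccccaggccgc

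IL6: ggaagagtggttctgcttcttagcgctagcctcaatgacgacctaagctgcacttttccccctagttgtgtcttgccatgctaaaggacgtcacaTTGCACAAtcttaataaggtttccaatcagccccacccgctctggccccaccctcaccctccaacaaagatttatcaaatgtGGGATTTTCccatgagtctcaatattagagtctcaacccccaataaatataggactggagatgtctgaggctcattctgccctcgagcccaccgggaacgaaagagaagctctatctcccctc

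The IL11 promoter held 1 match, TGAGTCA for AP-1, a transcription factor of the FOS and JUN families, which began 96 bases before the start. The motif TGANTCA was present in 7.71% of the 35116 promoters of the table. The hg19 region that covers the start of IL11 extended only 78 bp before it. Of the bases of the IL11 promoter 68.7% were G or C, against a median of 58.7% over all promoters. The IL6 promoter had 49.3% and held GGGATTTTC, a match for NF-kB, and TTGCACAA, a match for C/EBP, which began 73 and 155 bases before the start. NF-kB and C/EBP factors are known activators of IL6. These motifs were present in 4.78% and 36.8% of all promoters, and TATAAA, which neither promoter held, in 11.5%. Only these exact letters were searched, so a similar stretch, such as tatataa in the IL11 sequence, was not counted. The lack of a match therefore does not show that a promoter has no TATA box. A match describes the letters and shows no binding.

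LIF, which signals through LIFR and IL6ST, had more regions than the other genes. From left to right they were chr22:30635085-30636133 of 1048 bp, chr22:30637248-30638596 of 1348 bp, chr22:30640376-30640876 of 500 bp and chr22:30642258-30642758 of 500 bp. The wide regions thus stood at the left end of LIF and the regions of the smallest width toward its right end. LIF is transcribed toward lower coordinates, by general knowledge rather than from the tables used here, so its start is at the right end. The rightmost region ended 82 bp inside that right end and reached 582 bp into the gene, and the next lay 1964 to 2464 bp into it. The region of 1348 bp began 812 bp inside the left end, and the region of 1048 bp lay outside the gene, 303 bp past that end. In the list they had places 20, 24, 80 and 77 from left to right.

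These 4 regions were a large part of what chromosome 22 held: it had 8 broad regions in all, and its only 2 wide regions were those at LIF. The next broad region on the chromosome lay 4.75 Mb away. In the gene table, LIF overlaps the antisense transcripts LIF-AS1 and LIF-AS2, and IL6 overlaps IL6-AS1. Immunoprecipitated DNA carries no strand, so a region there cannot be assigned to the gene or to its antisense partner.

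IL6, which signals through IL6R and IL6ST, lies on the plus strand and had its 2 regions at the 3′ end. The region at chr7:22770851-22771351 lay inside the gene, 4085 to 4585 bp from its start and 270 bp before its end. The region at chr7:22772100-22772600 lay outside, 479 bp past the end. Each had the smallest width, 500 bp, and they stood at places 131 and 65 of the list. No broad region lay at the start of IL6. The next broad region was 268 kb away, at chr7:22497966-22498466, and chromosome 7 had 18 broad regions, none of them wide. The protein-coding neighbours of IL6 in the gene table are STEAP1B and TOMM7.

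OSM, which signals through OSMR or LIFR together with IL6ST, had no region of either list within 5 kb. It is the neighbour of LIF in the gene table, 16.0 kb from it in hg19, with no protein-coding gene between them. The stretch between LIF and OSM held 0 broad and 0 narrow regions. The broad region nearest to OSM was the rightmost of LIF, 16.1 kb away. The calls at this pair of neighbouring cytokine genes thus ended inside LIF, and whether the signal at OSM differed between senescent and growing cells cannot be read from a list of calls.

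Each of the 3 genes with regions had a region at or just past an end of the gene, though the positions differed. At IL6 it began 479 bp past the 3′ end, at IL11 a region ran 465 bp past the 3′ end, and at LIF one ended 303 bp outside the left end. Only at IL11 did a region cover the start given by the strand in the tables. At LIF the nearest region ended 82 bp short of the right end, and at IL6 the nearest region to the start was 4085 bp into the gene. Member regions had to lie in a gene or within 5 kb of it, so closeness to an end follows in part from the rule. These positions are therefore descriptions. How often other genes have regions at their ends was not computed, for want of an hg19 annotation.

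Regions at these genes came in series with short gaps. The gaps were 749 bp at IL6, 1397 bp at IL11, and 1115, 1780 and 1382 bp at LIF. Of the 341 pairs of neighbouring broad regions on the same chromosome, 21 were within 5 kb of each other and 14 within 2 kb (4.11%). Of these 14 pairs, 5 were at LIF, IL11 or IL6. Member regions had to lie within 5 kb of the same gene, so short gaps between them follow in part from the rule. The counts of pairs are therefore descriptions. No pair in the list was closer than 502 bp. The regions of a series share a locus and are not independent observations of HMGB2.

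When broad regions within 5 kb of each other were joined, the list became 343 loci with a median summed width of 500 bp. The IL11 locus ranked 3 by summed width, after loci of 7022 bp in 2q13 and 6122 bp in 10q22.2 and just before one of 5176 bp in 11q22.2. The LIF locus ranked 8, and with this joining it was the only locus of 4 regions. IL6 shared rank 26 with 3 further loci of 1000 bp. The rank of a joined locus depends on the joining: with regions joined only within 1 kb, the wider IL11 region ranked 7 and the widest LIF region 18, whereas IL6 stayed at rank 26. The number of regions depends on it too: joined within 10 kb, another locus held 5 regions and LIF was second with 4, and joined within 1 kb no locus held more than 2.

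**Figure D2:**
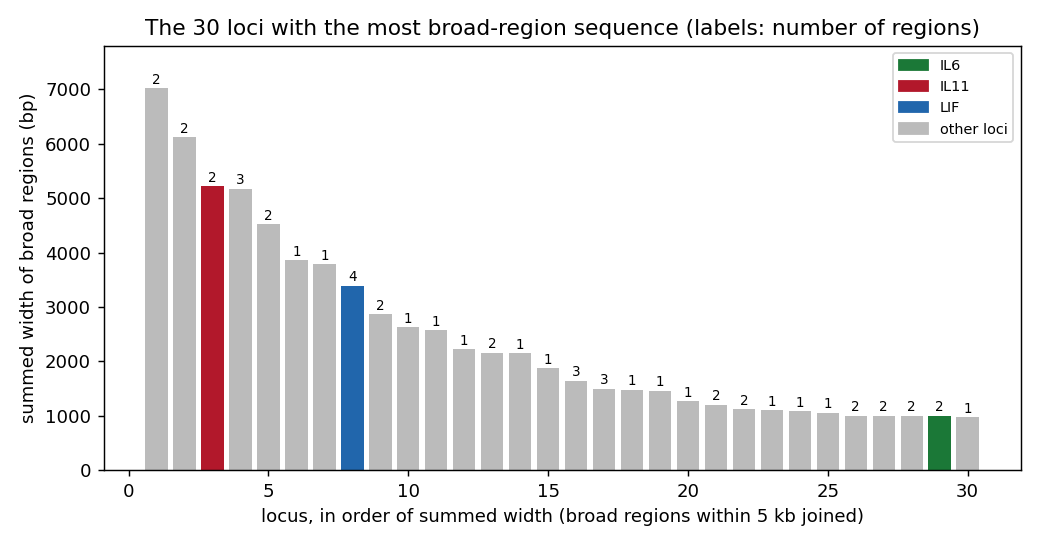
Summed width in bp of the broad regions at the 30 loci with the highest values, after joining regions within 5 kb, with the number of regions above each bar. IL11 stands at 5220 bp with 2 regions, LIF at 3396 bp with 4 and IL6 at 1000 bp with 2.

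All 8 member regions stood in the first 131 places of the broad list. The meaning of the deposited order is not given, but it goes with width: the 53 wide regions all stood within the first 76 places. Among the 311 regions of 500 bp, which cannot be ordered by width, the IL6 regions were in places 17 and 78 and the LIF regions in places 24 and 27. The members made up 2.20% of the broad regions, 7.55% of the wide regions and 4.10% of the summed width of the list.

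**Figure D3:**
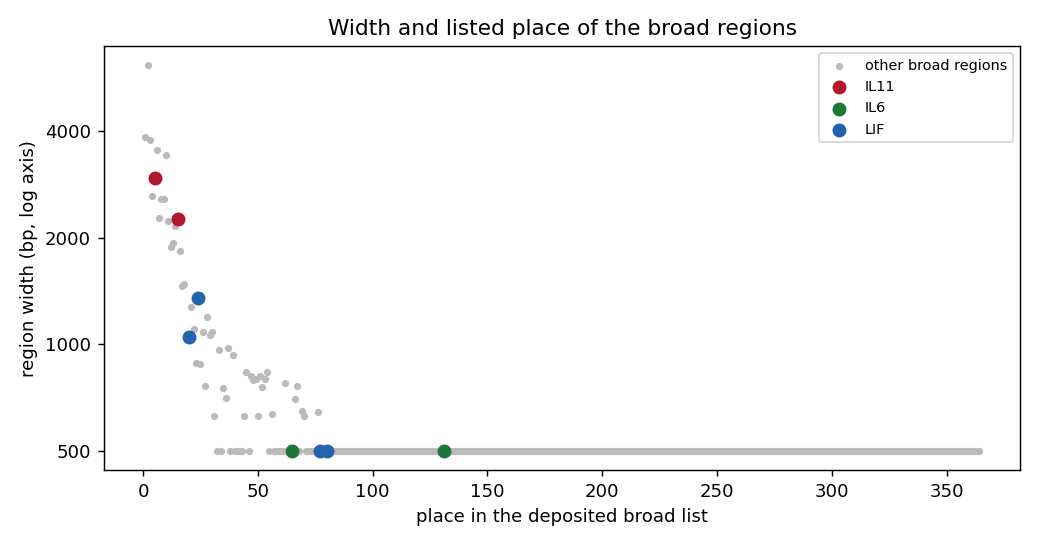
Width in bp (log axis) of each of the 364 broad regions against its place in the deposited list, with the regions at IL11, LIF and IL6 in colour. The IL11 regions are at places 5 and 15, the wide LIF regions at 20 and 24, and the regions of 500 bp at 65, 77, 80 and 131.

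The narrow list, whose regions all span 264 bp, had no region at any of the 4 genes. Narrow regions lay in 1.39% of the 15 kb windows, so their absence from 4 windows is no result about these genes. The nearest was 82.1 kb from IL11, at place 2355 of the narrow list, and the others were 268 kb from IL6, 243 kb from LIF and 223 kb from OSM. Since no narrow region lay within 5 kb of the genes, none of the 8 member regions, which sit at 3 loci, held one. In the whole list 100 of 364 broad regions (27.5%) and 21 of 53 wide regions (39.6%) held a narrow region. The wide regions at IL11 and at LIF were all among the 32 of 53 wide regions without one.

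For the receptors and the signalling pathway no hg19 positions were used, so the 24 genes were placed only by chromosome band, a stretch of up to several megabases too coarse to tie a region to a gene. A wide region lay in the bands of 3 of 24 genes (IL6R, TYK2 and SOCS3), near the background of 10.3% of 20037 protein-coding genes, and is no result about the pathway. Any broad region lay in the bands of 11 of 24, against 41.6% of protein-coding genes.

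Of the 9 receptor chains, 1 was in a band with a wide region. IL6R, the receptor chain specific to IL6, is assigned to 1q21.3, which held 2 wide regions with a summed width of 4520 bp. The bands of IL6ST (5q11.2) and of LIFR and OSMR (both 5p13.1) held 1 broad region of 500 bp each, and that of IL11RA (9p13.3) held none. Of the 6 signal transducers, the band of the kinase TYK2, 19p13.2, held 1 wide region of 1108 bp. The bands of 4 of the 6, that of STAT3 (17q21.2) among them, held no broad region. Of the 3 inhibitors, the band of SOCS3, 17q25.3, held 1 wide region of 628 bp. None of the 6 other ligands (CLCF1, CNTF, CTF1, IL27, EBI3 and IL31) was in a band with a wide region. The bands of IL6R, TYK2 and SOCS3 differ in length between hg19 and GRCh38, so these pairings are uncertain. OSM shows the limit of the join: its band, 22q12.2, held 2 wide regions, which by position lay at LIF.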

How the data were processed

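The authors deposited 2 lists of regions made from both libraries. Per the file headers the columns are a region name, its chromosome and its start and end positions. Bowtie 0.12.9, HOMER 1.0 and the build hg19 are listed in the submitters' processing notes without their roles. How they were set, any input control and the read numbers are unknown here. Whether positions count from 0 or 1 is not stated, so starts may differ by 1 bp. Width is end minus start.

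Members and lists were chosen with earlier results of these data known. All 4 genes were named, with pathway genes whose band held a wide region, 5 receptor chains and the neighbours of members. STAT3 and the other ligands were also named, outside this rule. Overlap was at least 1 bp. Counts were checked with bedtools 2.31.1. The counting code was tried on simulated positions with planted regions, which is no test of the counts found here. No test between groups was possible. Bands of hg19 and hg38 came from circlize 0.4.16 and chromosome lengths from GenomeInfoDb 1.38.1. All 24 pathway symbols matched the RefSeq gene table (GRCh38.p14), whose genes were placed in hg38 bands of the same name, and no coordinates were converted. Computation used Python 3.11.15, pandas 2.3.3 and scipy 1.17.1. Alternatives varied the distance, the part of the list, merging, width, overlap, window length and bands, and the joining of loci was added after seeing the data.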

Additional observations from a re-analysis of the deposited data

How the results depend on the processing

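The count of 8 broad regions was 6 to 8 with the gene body only, within 1 to 100 kb, in the first part of the list or with regions within 1 kb merged, and 4 with only wide regions, by construction. Counts for single genes moved more: OSM had 4 broad regions within 50 or 100 kb, those of LIF. The count of 0 narrow regions became 1 within 100 kb, at IL11. The 3 pathway genes in bands with a wide region became 0 when bands had to match in length between builds and 11 with all broad regions, by construction. The summed width of 9616 bp, the absence of narrow regions from member regions and the window shares moved by at most 1.5 times. No paired analysis was possible because there was only 1 library per condition. A gene with no region, such as OSM, may have had a signal that was similar in both conditions. Without the depth, it also cannot be told from one whose signal was too weakly sampled.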
